A study of Mus musculus with 6 samples.

Results

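The fibrillar collagen chains are the polypeptides that assemble into the banded fibrils of scar, tendon, skin and cartilage. They were chosen by name: the 10 genes of the deposited table whose symbol is *Col1a1*, *Col1a2*, *Col2a1*, *Col3a1*, *Col5a1*, *Col5a2*, *Col5a3*, *Col11a1*, *Col11a2* or *Col27a1*, out of 34745 listed genes. RNA-seq was performed on cardiac fibroblasts from the left ventricle of KDM5B-KO mice and of their WT littermates, with 3 libraries labelled KO and 3 labelled WT. All 6 come from male mice of 8 to 10 weeks in which a main coronary artery (the left anterior descending branch) had been tied off for good, and were taken on Day 7 after this myocardial infarction (MI), so that the operation is common to both groups and neither holds an unoperated heart. The KO animals carry a germline CRISPR/Cas9 deletion around the JmjC domain of *Kdm5b* that shifts the reading frame, and the deletion is not limited to fibroblasts. The KO line was made on a C57BL/6 background, and WT mice in the study are C57BL/6. Nothing in the labels says whether the 3 libraries of a group come from separate animals or from pools, and the p-values then measure only the spread between these libraries.

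Fibrillar collagens are made as procollagens in which 3 α chains wind into a triple helix, and the helix requires a glycine in each triplet of residues. Type I collagen, the main tensile protein of scar, combines α1 chains from *Col1a1* with an α2 chain from *Col1a2*, while type III, from *Col3a1* alone, forms thinner and more compliant fibrils and is abundant in early granulation tissue. Type V (*Col5a1*, *Col5a2*, *Col5a3*) and the related type XI (*Col11a1*, *Col11a2*) are minor chains that start fibrils and limit their width, and they can form mixed molecules with each other. Type II (*Col2a1*) and type XI with the α2 chain belong to cartilage, and type XXVII (*Col27a1*) is best known from developing cartilage and bone. After MI, activated cardiac fibroblasts are the main source of these chains, and the collagen they deposit replaces the lost muscle.

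The repeat that defines the family can be read from the coding strand of each gene. In the main coding transcripts of the GENCODE M21 annotation (build GRCm38, the same assembly as mm10), the longest unbroken run of triplets that begin with a glycine codon held 338 triplets in *Col1a1*, 339 in *Col1a2* and 344 in *Col3a1*. It held 338 in each of *Col5a1*, *Col11a1* and *Col11a2*, 337 in *Col5a3* and 339 in *Col2a1* and *Col5a2*. In *Col27a1* it held 217, the shortest of the 10. The first 6 triplets of the run are shown for 6 chains, because they hold what all 10 share and where they differ, with the glycine codon that opens each triplet in capitals:
Col1a1: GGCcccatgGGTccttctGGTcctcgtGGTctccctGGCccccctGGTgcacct
Col1a2: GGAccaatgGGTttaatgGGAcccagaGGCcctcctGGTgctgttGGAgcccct
Col3a1: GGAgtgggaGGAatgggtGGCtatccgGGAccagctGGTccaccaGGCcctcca
Col5a1: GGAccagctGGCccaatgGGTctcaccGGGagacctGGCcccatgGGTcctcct
Col11a1: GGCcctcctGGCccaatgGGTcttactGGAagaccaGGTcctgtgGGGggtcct
Col27a1: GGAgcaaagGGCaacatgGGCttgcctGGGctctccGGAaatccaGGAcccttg
The capitals recur every 9 bases in each line, and the chains differ both in the lower-case positions between them and in the last base of the capitalized glycine codons. The runs were aligned without gaps at the best offset of up to 6 triplets either way, and larger offsets were not tried. So aligned, *Col5a1* and *Col11a1* were the most alike of the 45 pairs, with 73.3% identical bases, followed by *Col1a1* and *Col2a1* with 71.0%. The median pair shared 51.2%. The longest exact stretch that any pair of coding sequences had in common was 32 bases, between *Col5a1* and *Col5a3*.

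Fibrillar collagen made up a large part of what these cells transcribed, and less of it in the KO libraries. The 10 chains together took 3.16%, 3.66% and 3.52% of all counts in KO-1, KO-2 and KO-3, against 4.29%, 4.57% and 4.57% in WT-1, WT-2 and WT-3. *Col1a1* alone was the gene with the most counts in 4 of the 6 libraries and the second in the other two. Of the 10 chains, 8 were lower in the KO libraries by edgeR's quasi-likelihood test (TMM scaling, which sets the trimmed mean of log ratios between libraries to 0, and adjusted p under 0.05 over all genes tested), at 22.4% to 32.2% less than in WT, and none was higher. By the same test 12.5% of the 14084 genes tested were lower and 17.7% were higher, and no chain was higher at an unadjusted p under 0.05 or by DESeq2 either. The median log2 fold change was -0.41 over the 10 chains and -0.015 over all genes tested. In bulk RNA, fewer cells of a type and less RNA per cell cannot be told apart. All 10 chains passed the filter on low counts.

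**Figure D1:**
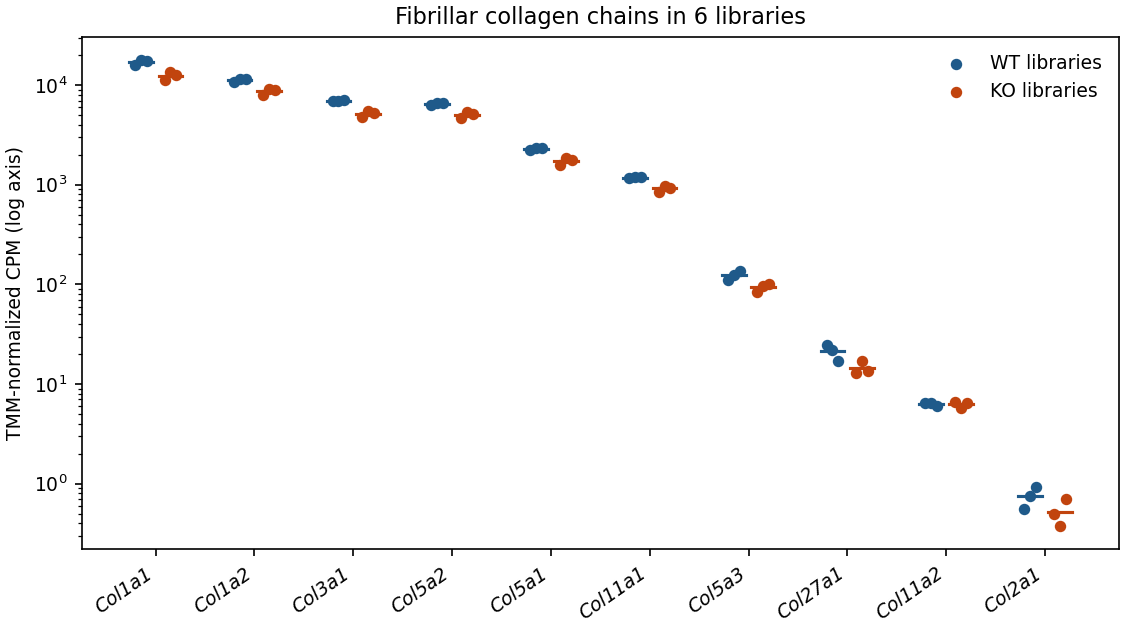
Level of each fibrillar collagen chain in each library, as TMM-normalized CPM (counts scaled to a common library total) on a log axis. Each point is 1 library and each bar the mean of 3. For the 8 chains from *Col1a1* to *Col27a1* the 3 KO points lie below the 3 WT points, while those of *Col11a2* and *Col2a1* overlap.

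The libraries were read first for what they are. They held between 12025403 and 15329427 counts on genes, the biological coefficient of variation between replicates was 10.9%, and for a gene with no count in the shallowest library the limit is 3 counts or 0.249 CPM, which covers counting error only. *Kdm5b* was at 98.1, 107 and 105 CPM in the KO libraries and at 108, 129 and 123 in the WT libraries (log2 fold change -0.22, standard error (SE) 0.07, adjusted p = 0.0574 from edgeR). The counts span the whole gene, including the exons outside the deletion, and so do not check the labels. By Q-PCR the paper found *Kdm5b* mRNA to be nearly absent from fibroblasts of KO hearts, unlike the counts here. The cause of this difference was not tested. All 15 fibroblast markers were detected, and their summed level was 6104 to 6902 CPM in the KO and 8209 to 8327 CPM in the WT libraries. Endothelial markers summed to 1540 to 2213 CPM in KO and 281 to 290 CPM in WT, and 11 of the 12 were higher in KO, against 17.7% of all genes tested. *Cldn5* was low and unchanged, at 1.06 CPM in KO-1 and 0.840 in WT-1 (log2 fold change 0.0043, adjusted p = 0.993 from edgeR). *Tek* (0.53) and *Emcn* (0.92) rose least of the 11. The order of the KO libraries was opposite in both sums. KO-1 held the most endothelial marker RNA (2213 CPM) and the least fibrillar collagen (31159 CPM), and KO-2 the least endothelial (1540 CPM) and the most collagen (36451 CPM). Without KO-1, 7 of the 10 chains were lower by edgeR's adjusted p, against 8.62% of all genes tested. Scalings on fibroblast markers and on cardiomyocyte and macrophage markers are given further on. The part of the endothelial shift in the results on collagen was not tested in another way.

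Type I collagen showed the change at the highest level. *Col1a1* (ENSMUSG00000001506, chromosome 11 from 94936224 to 94953042 in mm10, plus strand), the α1 chain, was at 11290, 13466 and 12688 CPM in KO-1 to KO-3 and at 15757, 17838 and 17343 CPM in WT-1 to WT-3. The groups did not overlap, and KO-1 was the lowest of the 6. The log2 fold change was -0.44 (SE 0.07, 95% interval -0.61 to -0.27, adjusted p = 0.00284 from edgeR), a level 26.5% lower. *Col1a2* (ENSMUSG00000029661, chromosome 6 from 4504814 to 4541544, plus strand), the α2 chain, was at 7914, 9228 and 8828 CPM in KO and at 10825, 11448 and 11524 CPM in WT. Here too all KO libraries lay below all WT libraries, with KO-1 lowest. The log2 fold change was -0.38 (SE 0.06, interval -0.52 to -0.24, adjusted p = 0.00253 from edgeR), or 23.2% lower. For each of the 8 called chains the exact two-sided permutation test over the libraries gave p = 0.1, the smallest that 3 against 3 allow, so that only the fit across all genes could pass the threshold.

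Type III collagen fell with type I. *Col3a1* (ENSMUSG00000026043, chromosome 1 from 45311538 to 45349706, plus strand) was at 4788, 5463 and 5276 CPM in KO and at 6904, 6869 and 7031 CPM in WT. The groups did not overlap, and the coefficient of variation was 1.23% among the WT and 6.73% among the KO libraries. The log2 fold change was -0.42 (SE 0.05, interval -0.55 to -0.30, adjusted p = 0.000811 from edgeR). This was the smallest adjusted p of the 10 chains, at a fold change between those of the type I chains.

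The type V chains fell by similar amounts at very different levels. *Col5a1* (ENSMUSG00000026837, chromosome 2 from 27886425 to 28039514, plus strand), the chain common to the known type V molecules, was at 1572, 1846 and 1765 CPM in KO and at 2211, 2341 and 2362 CPM in WT, without overlap (log2 fold change -0.42, SE 0.06, adjusted p = 0.00185 from edgeR). *Col5a2* (ENSMUSG00000026042, chromosome 1 from 45374321 to 45503282, minus strand), its common partner, was at 4635, 5357 and 5139 CPM in KO and at 6342, 6577 and 6671 CPM in WT (log2 fold change -0.37, SE 0.06, adjusted p = 0.00207). *Col5a2* lies 24614 bases beyond the end of *Col3a1* on the opposite strand, so that the genes run towards each other without overlapping. *Col5a3* (ENSMUSG00000004098, chromosome 9 from 20770050 to 20815067, minus strand), an optional partner, was far less abundant at 84.5, 96.5 and 102 CPM in KO and 112, 123 and 138 CPM in WT. Its KO libraries all lay below its WT libraries, by a narrower margin. Its log2 fold change was -0.40 (SE 0.09, interval -0.61 to -0.18, adjusted p = 0.0146 from edgeR).

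The type XI chains gave unlike values. *Col11a1* (ENSMUSG00000027966, chromosome 3 from 114030540 to 114220718, plus strand) was at 854, 971 and 926 CPM in KO and at 1165, 1188 and 1192 CPM in WT, so that all KO libraries were below all WT libraries. Its log2 fold change was -0.37 (SE 0.05, interval -0.48 to -0.25, adjusted p = 0.00142 from edgeR). *Col11a2* (ENSMUSG00000024330, chromosome 17 from 34039437 to 34066685, plus strand), the partner chain of cartilage fibrils, was counted 80, 77 and 99 times in KO and 93, 94 and 85 times in WT, which is 6.55, 5.78 and 6.38 CPM against 6.51, 6.41 and 6.04 CPM. The groups overlapped throughout, and no difference passed the test (log2 fold change -0.02, SE 0.13, interval -0.32 to 0.28, adjusted p = 0.922 from edgeR). The lower end of that interval was closer to 0 than the estimate of any of the 8 called chains. The ratio of *Col11a2* to *Col11a1*, chosen after the values were seen, was 0.0139, 0.0107 and 0.0124 in the FPKM (counts divided by gene length and library total) of the KO libraries and 0.0101, 0.00976 and 0.00916 in those of the WT libraries. All KO ratios were above all WT ratios, a log2 difference of 0.35 (p = 0.1 by the exact permutation test, two-sided, again the lowest it can give).

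The remaining chains were also of low level. *Col27a1* (ENSMUSG00000045672, chromosome 4 from 63214004 to 63334991, plus strand), the chain with the shortest unbroken run of glycine triplets, was counted 159, 228 and 208 times in KO and 355, 325 and 241 times in WT, or at 13.0, 17.1 and 13.4 CPM against 24.9, 22.2 and 17.1 CPM. KO-2 and WT-3 almost touched, at 17.10 and 17.13 CPM. The log2 fold change of -0.56 was the most negative of the 10 and had the widest error among the 8 called (SE 0.16, interval -0.93 to -0.19, adjusted p = 0.0321 from edgeR). The call was lost without KO-1 (adjusted p = 0.0951), KO-3 (0.103), WT-1 (0.0992) or WT-2 (0.0855), and in limma on log2(FPKM + 1) (0.0728). *Col2a1* (ENSMUSG00000022483, chromosome 15 from 97975602 to 98004695, minus strand), the cartilage chain, was counted 6, 5 and 11 times in KO and 8, 11 and 13 times in WT. At this depth no difference was detectable (log2 fold change -0.47, SE 0.39, interval -1.38 to 0.43, adjusted p = 0.4 from edgeR). With each library left out, its log2 fold change ran from -0.77 (without KO-3) to -0.28 (without KO-2).

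All 8 called chains had non-overlapping groups, against 22.4% of all tested genes with every KO library below every WT library. In all 8 of them KO-1 was the lowest of the 6 libraries, and in 7 of the 8 KO-2 was the highest of the KO libraries. Their log2 fold changes ran from -0.56 to -0.37. Leaving out KO-1, the library with the most endothelial marker RNA, left 7 chains called and a median log2 fold change of -0.33 over the 10. Of all genes tested without KO-1, 8.62% were lower.

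**Figure D2:**
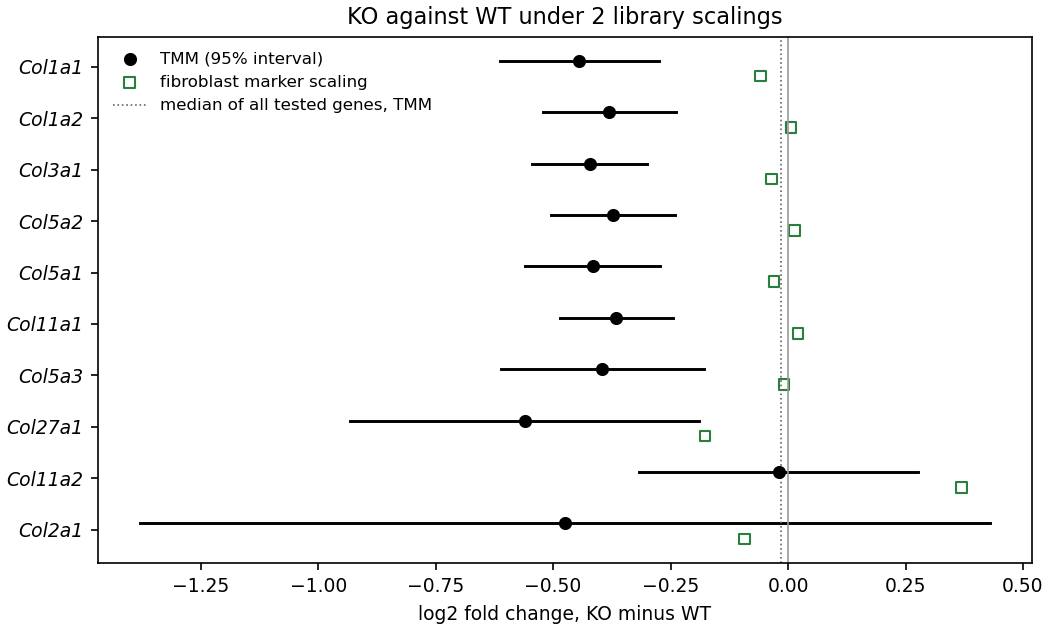
Log2 fold change of each chain, KO minus WT, from edgeR with TMM normalization (black, with 95% intervals) and with the libraries scaled on fibroblast markers (green squares). The dotted line is the median of all tested genes under TMM, -0.015. The 8 called chains lie between -0.56 and -0.37 under TMM and between -0.18 and 0.02 under the fibroblast scaling.

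The fall is relative to all RNA in the library, and it was not seen relative to fibroblast markers. With the libraries scaled so that 15 fibroblast markers had a median ratio of 1, the median log2 fold change of all genes moved to 0.37, and no chain was lower by edgeR at an adjusted or an unadjusted p under 0.05. Of all genes tested, only 0.405% were lower and 59.1% were higher by adjusted p under this scaling. *Col1a1* then had a log2 fold change of -0.06 (adjusted p = 0.397 from edgeR), *Col3a1* of -0.04 (0.442) and *Col5a1* of -0.03 (0.62). *Col1a2* (0.0061), *Col5a2* (0.01) and *Col11a1* (0.02) changed sign and stood close to 0. *Col5a3* was at -0.0086 and *Col27a1* at -0.18. *Col11a2* stood at 0.37, level with the median of all genes (adjusted p = 0.0533 from edgeR, unadjusted p under 0.05). A scaling on cardiomyocyte and macrophage markers, which no fibroblast gene entered, also left no chain lower at either p, and *Col11a2* was then higher (0.38, adjusted p = 0.0452). The median of all genes was also 0.38 under it, with 60.5% of all genes higher and 0.32% lower by adjusted p. Such a scaling moves the log2 fold changes of all genes by about the same amount. The distance of the called chains below the median of all genes was thus set by the TMM fit and is no separate result.

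The marker lists moved with the chains to a like extent. For the counts of calls in these lists, the shares over all genes tested were 12.5% lower and 17.7% higher. The median log2 fold change was -0.40 over 15 fibroblast markers, 12 of them lower by edgeR's adjusted p, and -0.44 over 8 myofibroblast markers, 6 of them lower. It was -0.41 over the 12 macrophage markers, with 7 lower and 1 higher, and -0.41 over the 11 cardiomyocyte markers tested, with 7 lower. Summed levels were 4722 to 5471 CPM in KO and 6487 to 6880 CPM in WT for myofibroblast markers, 1275 to 1316 against 1615 to 1687 CPM for macrophage markers, and 806 to 905 against 1127 to 1148 CPM for cardiomyocyte markers, of which *Myh7* was near 0 with at most 4 counts. Mural markers had a median of -0.40 over the 7 tested, with 3 lower and 2 higher, although they summed to 446 to 460 CPM in KO and 375 to 415 CPM in WT, since *Mcam*, which endothelial cells also express, was at 193 to 257 CPM in KO and 81.8 to 85.4 CPM in WT. Endothelial markers went the other way, with a median of 2.64. Markers of cartilage, the tissue of types II and XI, were mixed in level. *Col10a1*, *Cnmd* and *Matn1* were at or near 0, with no more than 3 counts in any library, while *Acan*, the large proteoglycan of cartilage, was at 11.9 to 13.9 CPM in KO and at 14.4 to 16.7 CPM in WT, above *Col11a2*. *Sox9*, a regulator of cartilage genes that fibroblasts can also express, was at 17.6 to 21.1 CPM in KO and at 22.1 to 29.5 CPM in WT, and *Sox6* and *Sox5*, its partners, were at 13.4 to 17.6 CPM and 5.18 to 8.96 CPM over the 6 libraries. Of the 12 cartilage markers, 7 were tested, 2 were lower (*Sox9* and *Sox5*) and 1 was higher. The latter was *Col9a3*, a chain of type IX collagen, at 2.37, 2.70 and 2.58 CPM in KO and at 1.26, 0.955 and 1.28 CPM in WT (log2 fold change 1.13, adjusted p = 0.00766 from edgeR).

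**Figure D3:**
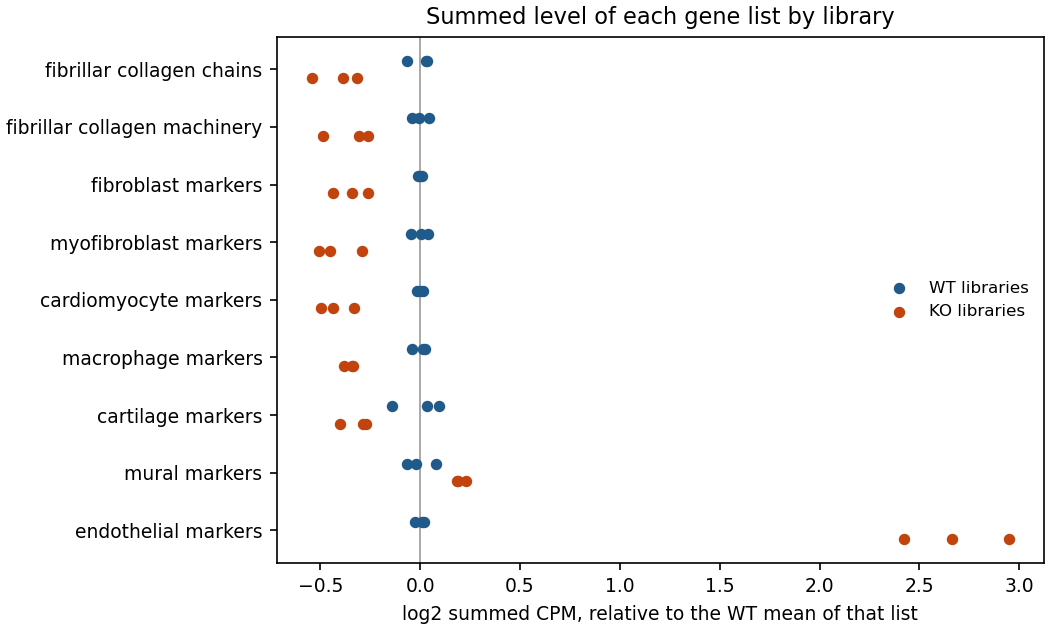
Summed CPM of each gene list in each library, as log2 relative to the mean of the WT libraries. The chains, their processing genes and the fibroblast, myofibroblast, cardiomyocyte and macrophage markers lie below 0 in all KO libraries. The endothelial markers lie far above 0, at 1540 to 2213 CPM against 281 to 290 CPM in WT.

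The ratio of one chain to another does not depend on how libraries are scaled. Of 11 ratios compared, 2 had no overlap between the groups, and no ratio passed the adjustment (smallest adjusted p = 0.55, exact two-sided permutation tests with Benjamini-Hochberg adjustment, which cannot go below 0.1 before adjustment). *Col1a2* to *Col1a1*, the α2 to α1 balance of type I, was 0.300, 0.293 and 0.298 in the FPKM of the KO libraries and 0.294, 0.275 and 0.284 in those of the WT libraries. WT-1 lay among the KO values, and the log2 difference was 0.06. *Col3a1* to *Col1a1*, the type III to type I balance that is often followed in scars, was 0.274, 0.262 and 0.269 in KO and 0.283, 0.249 and 0.262 in WT. The WT libraries spanned the KO libraries (log2 difference 0.02, SD 0.03 in KO and 0.09 in WT, p = 0.8 by the exact test).

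Both ratios without overlap had *Col5a2* on top. *Col5a2* to *Col5a1* was 2.56, 2.52 and 2.53 in KO and 2.49, 2.44 and 2.46 in WT, a log2 difference of 0.04. *Col5a2* to *Col3a1*, its neighbour, was 1.03, 1.04 and 1.03 in KO and 0.976, 1.02 and 1.01 in WT, a log2 difference of 0.05. Either had an exact p of 0.1 and an adjusted p of 0.55, so that neither passed. *Col11a1* to *Col5a1* averaged 0.330 ± 0.006 (SD, n = 3) in KO and 0.318 ± 0.008 in WT, with overlap. *Col27a1* to *Col1a1* was the only one of the 11 that was lower in KO (log2 difference -0.11), with overlap and with the largest spread (log2 SD 0.34 in WT). The largest difference among these 11 was 0.11 on the log2 scale, against falls of 0.37 to 0.56 of the called chains themselves. The 11 hold no ratio with *Col11a2*, whose ratio to *Col11a1* differed by 0.35 (above).

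**Figure D4:**
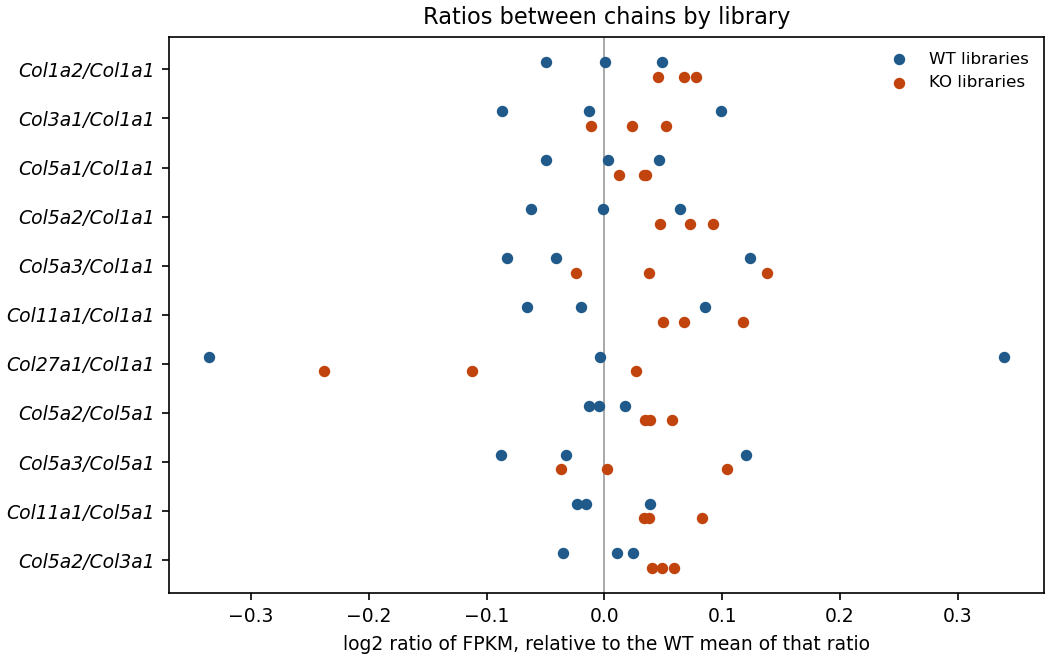
Log2 ratio of FPKM between pairs of chains in each library, relative to the WT mean of the same ratio. Each point is 1 library. KO and WT points overlap in 9 of the 11 ratios, and *Col5a2*/*Col5a1* and *Col5a2*/*Col3a1* are the 2 without overlap.

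The level of each chain per length depends on the length assumed. In the deposited FPKM of the WT libraries, *Col1a1* led with 2417 ± 149 (SD, n = 3), followed by *Col1a2* with 686 ± 22, *Col5a2* with 638 ± 15.5 and *Col3a1* with 638 ± 8.41, the last of which could not be ordered against *Col5a2*. *Col5a1* (259 ± 8.71), *Col11a1* (82.5 ± 0.855), *Col5a3* (17.7 ± 1.85), *Col27a1* (1.25 ± 0.230), *Col11a2* (0.797 ± 0.0315) and *Col2a1* (0.102 ± 0.0247) followed, each above the next in all WT libraries. In the KO libraries the order was the same, with *Col1a2*, *Col5a2* and *Col3a1* overlapping in sequence at 540 ± 39.4, 504 ± 34.6 and 487 ± 30.5, and *Col27a1* (0.867 ± 0.130) overlapping *Col11a2* (0.805 ± 0.0567). The gene length behind these values, computed from the counts and the FPKM, was 16209 bases for *Col1a2*, or 3.03 times its main coding transcript of 5348 bases. It was 6934 bases against 5930 for *Col1a1*, a factor of 1.17. For *Col3a1* the factor was 1.93, for *Col27a1* 2.22, for *Col11a1* 1.84 and for *Col5a1* 1.04.

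Per kilobase of the main coding transcript, chosen after seeing the data, the WT order changed at 2 of 10 places. *Col1a1* was then at 2827 ± 174, *Col1a2* at 2080 ± 66.8, *Col3a1* at 1231 ± 16.2 and *Col5a2* at 973 ± 23.7, in CPM per kilobase, and no neighbours in the order overlapped. The ratio of *Col1a2* to *Col1a1* in WT was 0.737 ± 0.025 on this scale, against 0.284 ± 0.010 in the deposited FPKM. That of *Col3a1* to *Col1a1* was 0.437 ± 0.029 against 0.265 ± 0.017, and that of *Col5a2* to *Col5a1* 3.60 ± 0.039 against 2.46 ± 0.027. In the sum of the 10 chains, *Col1a1* then held 37.4% in WT and 36.5% in KO, and *Col1a2* 27.5% and 28.1%. A change of length multiplies a chain by the same factor in every library, so that fold changes and log2 differences of ratios between KO and WT, taken without a pseudocount, are not touched by it, while shares of the sum are.

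Other genes that counted reads at the same place took little. The loci of *Col1a2*, *Col5a1* and *Col5a2* overlap 4 other listed genes, of which *2810430I11Rik*, antisense to *Col5a1*, had at most 0.163% of the counts of its partner, and the others less. The libraries were made with a stranded kit. Whether the counting used the strand is not given in the sources used here.

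Promoters of chains that were called lower and of *Col11a2*, which was not, are shown next, as 300 bases from 250 before to 50 after the RefSeq start, on the strand of the gene (RefSeq, GRCm38.p6). A promoter was matched for 7 of the 10 chains, and *Col1a1*, *Col2a1* and *Col5a2* are named only. Short motifs were searched on both strands, by their exact letters, and are in capitals, also where they appear as the reverse complement. The first was CCAAT, known as the CCAAT box. The second was TATAAA, the core of the usual TATA box. The other was GGGCGG, the core of the GC box that Sp1 recognizes.
Col1a2 (chr6:4505368-4505667, plus strand): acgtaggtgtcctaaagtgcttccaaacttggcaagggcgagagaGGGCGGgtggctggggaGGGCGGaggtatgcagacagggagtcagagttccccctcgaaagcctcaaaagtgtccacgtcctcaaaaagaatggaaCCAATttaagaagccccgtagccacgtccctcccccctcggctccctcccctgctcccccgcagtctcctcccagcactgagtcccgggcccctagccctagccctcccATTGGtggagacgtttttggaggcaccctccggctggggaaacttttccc
Col3a1 (chr1:45311288-45311587, plus strand): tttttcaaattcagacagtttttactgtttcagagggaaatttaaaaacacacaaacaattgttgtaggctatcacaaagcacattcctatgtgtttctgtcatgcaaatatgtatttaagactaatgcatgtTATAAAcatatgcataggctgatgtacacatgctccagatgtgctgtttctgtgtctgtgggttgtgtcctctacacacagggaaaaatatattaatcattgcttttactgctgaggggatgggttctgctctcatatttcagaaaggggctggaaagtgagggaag
Col11a1 (chr3:114030290-114030589, plus strand): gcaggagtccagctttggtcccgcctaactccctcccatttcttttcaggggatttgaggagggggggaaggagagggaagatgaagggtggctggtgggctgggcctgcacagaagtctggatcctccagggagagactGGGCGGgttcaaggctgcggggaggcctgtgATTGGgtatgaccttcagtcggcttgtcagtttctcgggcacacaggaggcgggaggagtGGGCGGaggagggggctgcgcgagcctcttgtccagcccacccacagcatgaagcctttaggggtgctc
Col11a2 (chr17:34038888-34039187, plus strand): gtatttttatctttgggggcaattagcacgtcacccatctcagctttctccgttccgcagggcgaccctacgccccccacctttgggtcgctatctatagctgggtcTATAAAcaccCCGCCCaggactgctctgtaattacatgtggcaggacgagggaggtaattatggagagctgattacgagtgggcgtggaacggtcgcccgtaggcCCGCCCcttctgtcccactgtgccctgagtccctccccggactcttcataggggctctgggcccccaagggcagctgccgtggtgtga
*Col1a2* held CCAAT 109 bases before the start and in the reverse direction at the start, with GGGCGG at 205 and 188 bases before it. *Col3a1* held TATAAA 117 bases before its start and neither of the other motifs, in a window of 37.7% GC. *Col11a1* held a reverse CCAAT at 79 and GGGCGG at 110 and 19 bases before the start. *Col11a2* held TATAAA at 143 and a reverse GGGCGG at 133 and 38. Among the other windows, *Col5a3* held CCAAT at 122 with GGGCGG 3 times, and *Col5a1* and *Col27a1* held GGGCGG 2 times each. CCAAT was present in 37.4% of all 32851 promoters of this length, GGGCGG in 35.7% and TATAAA in 13.6%. These matches describe letters in the window and are not binding sites, and a missing motif says only that its letters are not there.

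The genes that process fibrillar collagen were also mostly lower. Of 70 genes listed for the synthesis, secretion, assembly and turnover of fibrillar collagen, 66 were tested, 40 were lower in KO and 4 were higher by edgeR's adjusted p, with a median log2 fold change of -0.37. Of all 14084 genes tested, 12.5% were lower and 17.7% higher, the shares to set beside the counts by role below. Their summed level was 42053 to 49150 CPM in KO and 57213 to 60790 CPM in WT. With the fibroblast scaling, which shares 5 genes with this list, 1 was lower and 19 were higher, where 59.1% of all genes tested were higher.

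In the endoplasmic reticulum, 7 of 14 genes for folding and modification were lower and none was higher. Among them were *Crtap*, a part of the prolyl 3-hydroxylation complex, at 98.7, 107 and 95.1 CPM in KO against 132, 142 and 129 CPM in WT (log2 fold change -0.42, adjusted p = 0.00188 from edgeR), and *Colgalt1*, which adds galactose to hydroxylysine (-0.31, adjusted p = 0.00166). *P3h3*, a prolyl 3-hydroxylase, was at -0.53 (adjusted p = 0.0397 from edgeR) with overlapping groups, and its call was lost without KO-1, KO-3, WT-2 or WT-3, at adjusted p from 0.107 to 0.125, and by limma on log2(FPKM + 1) at 0.0576. The collagen chaperone gene *Serpinh1* (-0.26, adjusted p = 0.433) and the prolyl 4-hydroxylase subunit gene *P4hb* (-0.015, adjusted p = 0.797) did not pass. 

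In secretion, 3 of 5 tested genes were lower. *Creb3l1*, a transcription factor of the secretory pathway that acts on collagen genes, was at 263, 320 and 288 CPM in KO and at 409, 417 and 414 CPM in WT (log2 fold change -0.51, SE 0.07, adjusted p = 0.00106 from edgeR). *Sec23a* (-0.39) and *Sec24d* (-0.34), coat subunits of the vesicles that carry procollagen, were lower as well, while *Mia3*, the receptor that loads procollagen, was at -0.08 (adjusted p = 0.280). Of the genes for propeptide cleavage, 5 of 7 tested were lower. *Pcolce* (-0.45), the enhancer of the C-proteinase, *Bmp1* (-0.45), that proteinase, and *Adamts2* (-0.44), the N-proteinase, were at adjusted p of 0.000443, 0.00123 and 0.00248 by edgeR.

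Crosslinking enzymes split. *Lox* was at 3229, 4108 and 3796 CPM in KO and at 4707, 5187 and 5064 CPM in WT (log2 fold change -0.43, adjusted p = 0.00649 from edgeR), and *Loxl1* (-0.52, adjusted p = 0.000455) fell as well. *Loxl4*, a paralog of the same family, was at 175, 141 and 153 CPM in KO and at 56.2, 57.5 and 53.4 CPM in WT, a rise of 1.49 on the log2 scale (SE 0.08, adjusted p = 1.37e-05 from edgeR). KO-1 was its highest library, as for the endothelial sum. Of the fibril-associated proteins, 11 of 12 tested genes were lower and none was higher. They included *Bgn*, a small proteoglycan on the fibril surface (-0.47, adjusted p = 0.000376 from edgeR), *Aebp1*, a collagen-binding protein (-0.42, adjusted p = 0.00179), and *Fn1*, fibronectin (-0.35, adjusted p = 0.00909). *Fmod*, a proteoglycan of low level here, was at -0.43 (adjusted p = 0.0286 from edgeR), a call lost without KO-3, WT-1 or WT-3 at 0.0801 to 0.0952.

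Receptors and turnover showed both directions. *Itga11*, the fibroblast integrin for fibrillar collagen, was at 132, 152 and 132 CPM in KO and at 191, 186 and 181 CPM in WT (log2 fold change -0.43, adjusted p = 0.00193 from edgeR), and *Ddr2*, a receptor kinase for fibrillar collagen, was lower too (-0.36, adjusted p = 0.00321). *Itga2*, another collagen-binding integrin subunit, was at 16.6, 10.4 and 11.2 CPM in KO and at 4.76, 4.44 and 6.19 CPM in WT, a rise of 1.31 (SE 0.22, adjusted p = 0.00274 from edgeR). *Mrc2*, the uptake receptor for cleaved collagen, was lower (-0.46, adjusted p = 0.00031 from edgeR). *Mmp13*, an interstitial collagenase, rose most, from 6.51, 6.48 and 7.82 CPM in WT to 86.0, 48.6 and 49.3 CPM in KO (3.14 on the log2 scale, SE 0.24, adjusted p = 6.16e-05). KO-1 stood apart from the other KO libraries there. *Mmp8*, a second collagenase at low level, was at -0.55 (adjusted p = 0.0177 from edgeR), a call lost without KO-2, KO-3 or WT-1 at 0.0511 to 0.0628.

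Among the regulators, 3 of 9 were lower and 1 was higher, where 12.5% of all genes tested were lower and 17.7% higher. *Tgfb1*, the ligand that drives collagen transcription in fibroblasts and is also made by many other cells, was at 195, 184 and 185 CPM in KO and at 122, 132 and 131 CPM in WT, a rise of 0.55 on the log2 scale (SE 0.05, adjusted p = 0.000195 from edgeR). *Ccn2*, a target of that pathway, was at 1797, 2218 and 1999 CPM in KO and at 2705, 2907 and 2770 CPM in WT (-0.48, SE 0.07, adjusted p = 0.002). *Tcf21*, a transcription factor of resident cardiac fibroblasts, was lower (-0.48, adjusted p = 0.00503). *Loxl4*, *Itga2*, *Mmp13* and *Tgfb1* were higher in KO under every alternative that was run.

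**Figure D5:**
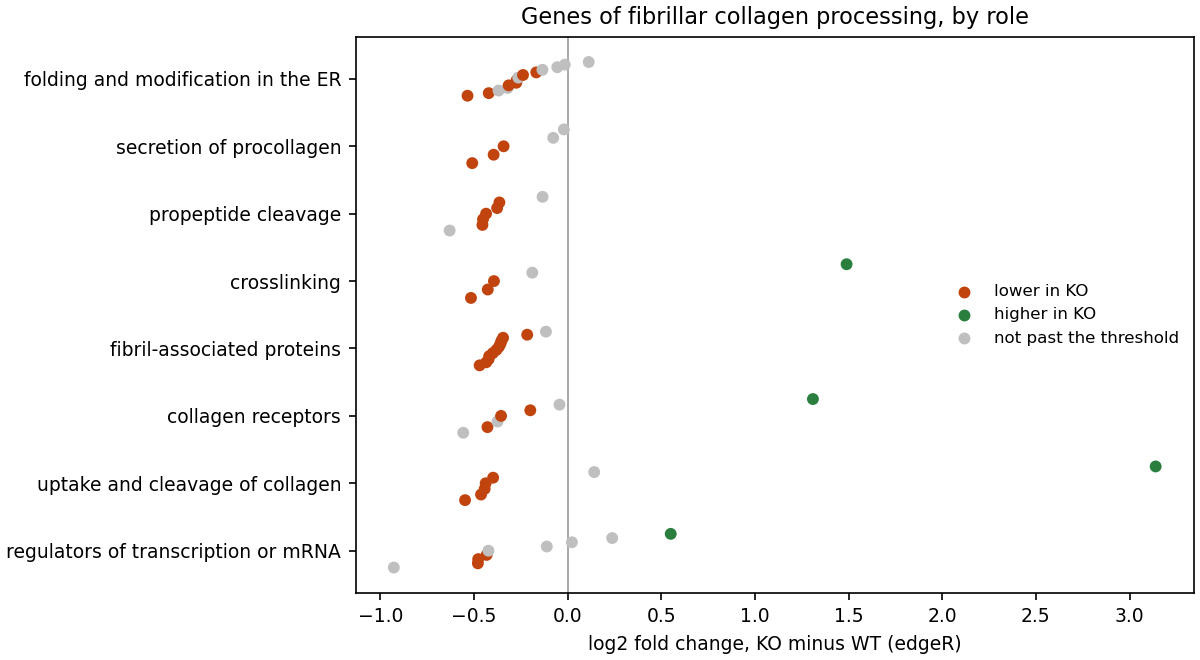
Log2 fold change, KO minus WT, of the 66 tested genes of fibrillar collagen processing, by role, from edgeR. Each point is 1 gene, colored by its call. In all 8 roles there are lower genes, which lie between -0.55 and -0.17, and the 4 higher genes (*Tgfb1*, *Itga2*, *Loxl4* and *Mmp13*) lie between 0.55 and 3.14.

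The other collagen genes of the table gave a similar picture with exceptions. Of 34 such genes, which include *Col24a1*, a fibrillar collagen that is not among the 10 chains (log2 fold change -0.25, adjusted p = 0.540 from edgeR), 25 were tested, 15 were lower and 3 were higher, with a median log2 fold change of -0.33. Over all genes tested, 12.5% were lower and 17.7% were higher. *Col18a1*, whose product is a basement membrane collagen of vessels among other sites, was higher by 1.74 (adjusted p = 5.10e-06 from edgeR), while *Col4a1*, a chain of type IV basement membrane collagen, was lower (-0.30, adjusted p = 0.00242). *Col6a1* (-0.46) and *Col12a1* (-0.37), partners of fibrils in the interstitium, were lower by amounts like those of the fibrillar chains. These genes were picked here for their roles after their values were seen.

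The genes whose pattern over the 6 libraries was most like that of *Col1a1* were *Unc5b* (Pearson r = 0.9995, Spearman rho = 1), *Lif* (0.998), *Gusb* (0.997), *Snx18* (0.996) and *Mamdc2* (0.996), in log2 CPM among the 4133 genes whose FPKM averaged 10 or more. With 6 points that fall into 2 groups such values are common, since 697 of those genes had an r above 0.9 and 105 had the same rank order as *Col1a1*. Among the chains, the deviations from the group means followed *Col1a1* most closely in *Col1a2* (r = 0.964), *Col5a1* (0.961) and *Col5a2* (0.934), then in *Col11a1* (0.896), *Col3a1* (0.804) and *Col5a3* (0.749), over the same 6 libraries. *Col27a1* (0.146) and *Col2a1* (0.140) did so little, and *Col11a2* went the other way (-0.749). These are descriptions over libraries that share their depth and scaling, and carry no test.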

How the data were processed

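Cardiac fibroblast RNA was sequenced in 3 KO and 3 WT libraries. The authors aligned paired-end reads with HISAT2, under its defaults, to mm10, and the submitters' processing notes also name edgeR and GRCm38.p4. The counting tool, its strand setting and the annotation release are not given in the sources used here. The authors deposited 2 values per gene and library: the count, a whole number without normalization, and the FPKM, which is that count divided by gene length and library total. The gene length implied by both differed between libraries by a share of at most 1.63e-05 among genes with 50 counts in each.

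Counts were tested in edgeR 4.0.16 with R 4.3.3 (filterByExpr, TMM, glmQLFit, glmQLFTest, Benjamini-Hochberg adjustment over all 14084 genes tested, two-sided, no covariate). CPM here are counts scaled to a common total after TMM, and ± is the SD of 3 libraries. Ratios are of FPKM, without pseudocount, for pairs with at least 20 counts in every library. Alternatives were DESeq2 1.42.0, leaving out the filter or requiring a mean CPM of 1 or more, library size, upper quartile, limma 3.58.1 on log2(FPKM + 1), a replicate block, marker scaling (cardiomyocyte and macrophage markers), fibroblast scaling and each library left out. For ratios, FPKM + 1 was also tried. The fits were first tested on simulated data. Gene models came from GENCODE M21, promoters from RefSeq, and figures from matplotlib 3.10.9. Named genes are the 10 chains, per role of the processing list up to 3 genes with the largest changes among those past the threshold and any called in the opposite direction, *Kdm5b*, *Fn1*, *Tgfb1* and *Ccn2*, and the 5 genes most like *Col1a1*. *Serpinh1*, *P4hb*, *Mia3*, *Acan*, *Col9a3*, *Sox5*, *Sox6*, *Sox9*, *Mcam*, *Cldn5*, *Tek*, *Emcn* and the genes of other collagens were named after their values were seen. The members and lists were chosen with earlier results of these data known.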

Additional observations from a re-analysis of the deposited data

How the results depend on the processing

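With 3 libraries per group the exact tests cannot pass 0.05, and the spread between libraries limits every value. Of the 10 chains, 7 or 8 were lower under each alternative except the 2 scalings on markers. Under those same alternatives the share of all genes that was lower ran from 6.77% (DESeq2) to 16.1% (upper quartile). With marker scaling, 0 chains were lower and 1 was higher, and of the processing genes 0 were lower and 22 higher, where 60.5% of all genes were higher. With fibroblast scaling, 0 chains were lower, and of the processing genes 1 was lower and 19 were higher. These scalings moved the median log2 fold change of all 14084 genes to 0.38 and 0.37, with 8519 genes higher and 45 lower, and 8318 higher and 57 lower, against 2488 and 1760 with TMM. The upper quartile gave 2210 higher and 2263 lower, library size 2739 and 1424, and leaving out KO-3 2021 and 1131. Log2 fold changes that changed sign under marker scaling, then fibroblast scaling, were those of *Col1a2* (0.0146, 0.0061), *Col5a2* (0.022, 0.014), *Col11a1* (0.030, 0.022), *Col11a2* (0.378, 0.370), *Colgalt1* (0.082, 0.073), *Sec24d* (0.055, 0.047), *Ddr2* (0.041, 0.032), *Fn1* (0.041, 0.032) and *Kdm5b* (0.179, 0.171), and under marker scaling those of *Col5a3* (0.00038) and *Sec23a* (0.0026). *Col11a2* also changed sign by library size (0.014), limma (0.0061) and without KO-2 (0.041), and ran from -0.053 to that value with each library left out. *Kdm5b* was lower by the upper quartile (adjusted p = 0.0324 from edgeR) and without WT-1 (0.0188).

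The ratio of *Col3a1* to *Col1a1* ran from -0.022 (without WT-2) to 0.071 (without WT-1) as a log2 difference with each library left out. That of *Col27a1* to *Col1a1* ran from -0.276 to 0.062 (without WT-1) and was 0.146 with FPKM + 1. That of *Col5a3* to *Col5a1* ran from -0.020 (without WT-1) to 0.083 (without WT-3), and was -0.017 without KO-3. That of *Col5a2* to *Col3a1* ran from 0.032 (without WT-1) to 0.062 (without WT-2). That of *Col1a2* to *Col1a1* ran from 0.039 (without WT-2) to 0.088 (without WT-1). The cause of these changes was not tested. By main coding transcript length, the WT ratios were 0.737 for *Col1a2*/*Col1a1*, 0.437 for *Col3a1*/*Col1a1* and 3.60 for *Col5a2*/*Col5a1*, because the deposited FPKM uses other lengths. By Spearman rho, 105 genes tied at 1, with 4 of the 5 genes most like *Col1a1* among them, so that rho gives no order at the top.

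The labels number the replicates alike in both groups, but same-numbered libraries showed little common deviation (r = -0.00018, 0.0039 and 0.036). With 3 libraries per group these values give no evidence of pairing by number and cannot exclude it. With the replicate block, 8 chains were lower (median log2 fold change -0.41) and 2316 genes were higher and 1591 lower in all. The block gave *Kdm5b* an adjusted p of 0.0271 and changed no other call among the chains and the processing genes named by the rule. The other named genes were not examined under the block.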
